A study of Mus musculus with 24 samples.

Results

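The deposited H3K4me3 peak lists of the postnatal mouse retina were compared between postnatal day 2 (P2) and postnatal day 17 (P17). All peaks of both lists were taken, 9134 at P2 and 9629 at P17, which makes 18763 regions of the 349901 regions in all lists of the series. The series used CUT&RUN, in which an antibody brings a nuclease to a chromatin mark or protein and the cut fragments are sequenced, on nuclei of wild-type retina at both ages. It holds 24 libraries with antibodies to H3K4me3, H3K27ac, SOX8, SOX9 or a nonspecific IgG. The H3K4me3 groups are wild-type retina at P2 with 2 libraries and wild-type retina at P17 with 2 libraries, and no allele or treatment is named for either. Whole retinas were used, so each list mixes all retinal cell types. The labels do not say how many animals went into a library, nor whether the libraries come from separate animals.

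Each age is represented by 1 list that names no replicate, and the score of each peak was 0. A width or a count therefore has no replicate error, no test between the ages could be made, and the values below describe these lists. Peaks that overlapped by at least 1 bp were paired, and the log2 ratio of the P17 to the P2 width was taken, so that positive values mean a wider peak at P17. A ratio of at least 2-fold is called wider or narrower. Intervals are 95% Wilson intervals and cover counting error only. How deeply the libraries were sequenced is not known here. Unequal depth or calling thresholds at the ages would affect widths and the presence of peaks alike. No IgG list was analysed here.

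Trimethylation of lysine 4 on histone H3 is laid down by SET1 and MLL family methyltransferases around the start sites of genes with an active or poised promoter. It is usually present at CpG island promoters in all tissues, and broad domains of the mark are known to lie over genes that set or carry out the identity of a cell type. In the mouse retina around P2 the last progenitors divide and give rise to rods, bipolar cells and Müller glia. By P17 division has ended, the eyes are open and the rods, by far the most numerous retinal cells, carry outer segments.

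The P2 peaks spanned 35.5 Mb together, and the P17 peaks 39.4 Mb. The median peak width was 3542 bp (range 1096 to 34586 bp) at P2 and 3703 bp (range 300 to 27972 bp) at P17. A protein-coding gene start lay within 1 kb of 93.3% of P2 peaks and 91.3% of P17 peaks, so both lists are mostly lists of promoters. Start positions came from RefSeq on GRCm38.p6. For 17491 of 21883 protein-coding genes the RefSeq promoter table gives the start and its strand, and for the other 4392, among them Gnat1, Pde6a and Hes1, both gene ends were used.

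Most peaks of either list were shared between the ages. Of the P2 peaks, 8249 (90.3%) overlapped a P17 peak, and of the P17 peaks, 8239 (85.6%) overlapped a P2 peak. The P2 list held 885 peaks with no P17 peak (9.69%, interval 9.10 to 10.3%), and the P17 list held 1390 peaks with no P2 peak (14.4%, interval 13.7 to 15.2%). The line between shared and unshared peaks was rarely close. The smallest overlaps were 190, 283 and 300 bp. Between an unshared P2 peak and an unshared P17 peak the smallest gaps were 667, 1092 and 1637 bp. When any peak of the other age within 1 kb counted as shared, 876 P2-only and 1376 P17-only peaks were left. Unshared peaks were narrower at the median than shared ones, more so at P17. In the wider 50% of their own list lay 418 of the 885 P2-only and 552 of the 1390 P17-only peaks. P2-only peaks had a median width of 3457 bp against 3549 bp for shared P2 peaks, and P17-only peaks had 3226 bp against 3756 bp.

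The peaks of 1 age lay at promoters less often than shared peaks. A protein-coding start lay within 1 kb of 740 P2-only peaks (83.6%) and of 1023 P17-only peaks (73.6%), against 94.3% and 94.2% of shared P2 and P17 peaks. Of the 367 P17-only peaks away from such starts, 193 lay inside a protein-coding gene, 90 at an end of a long noncoding RNA gene and 84 elsewhere. Of the 145 P2-only peaks away from starts, these numbers were 76, 27 and 42. The widest P17-only peak away from a start lay inside Gnb1, which encodes the transducin beta subunit of rods, and spanned 20314 bp (chr4:155520122-155540435). Other P17-only peaks lay inside Sfi1 (13887 bp), Atp2c1 (12334 bp), Pcbp3 (11670 bp) and Frmpd1 (9100 bp). The widest P2-only peak away from a start, 11168 bp, lay nearest to Lman1, at 10990 bp, and one of 8431 bp lay inside Tbx5. At P2 only, peaks of 8970 bp and 6992 bp also lay 7229 bp and 6058 bp from Sox2, the gene of a progenitor and glial transcription factor, and a peak of 7634 bp lay inside Prdm1, which favours rods over bipolar cells.

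Shared peaks had similar widths at both ages. Over all 8281 overlapping pairs the median log2 ratio was 0.06 (interquartile range -0.16 to 0.30), and 4794 pairs (57.9%) were wider at P17. In 207 pairs (2.50%) the P17 peak was at least 2-fold wider, and in 99 (1.20%) at least 2-fold narrower. Some of these pairs arise where several peaks of 1 age meet a single peak of the other. The pairs form 8207 loci, of which 38 joined several P2 peaks under 1 P17 peak, 28 split 1 P2 peak into several P17 peaks, and 2 did both. Among the 8139 pairs in which a peak met a single partner, 144 (1.77%) were at least 2-fold wider and 55 (0.676%) at least 2-fold narrower at P17, with log2 ratios from -1.94 to 2.81. At the edge of the 2-fold line, the closest log2 ratios inside were 1.021 and 1.022 and the closest outside 0.997 and 0.995.

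Among pairs in which a peak met a single partner, the promoter with the largest widening was that of Prph2, which encodes peripherin-2, a tetraspanin that shapes the rim of the outer segment discs. Its peak spanned 3980 bp at P2 (chr17:46909614-46913593) and 27972 bp at P17 (chr17:46902367-46930338), a log2 ratio of 2.81, and the P17 peak was the widest of its list. Rom1, the gene of its partner in the disc rim, had its widest start peak at 5896 bp at P2 and 14680 bp at P17 (log2 ratio 1.32). That P17 peak also joined a separate P2 peak of 2550 bp at B3gat3 and reached the start of Eml3. Crx, a homeodomain factor that drives photoreceptor genes, already had a wide peak at P2, with 11638 bp, and spanned 22398 bp at P17 (log2 ratio 0.94).

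Pairs that were several-fold wider included neighbours of rod genes. The second largest ratio among single-partner pairs belonged to a P2 peak of 2777 bp at Ccdc137 and Oxld1. At P17 this peak spanned 16271 bp (chr11:120443079-120459349, log2 ratio 2.55) and reached Tspan10 and Pde6g, the gene of the inhibitory subunit of the rod phosphodiesterase. The peak at Cyth2 and Kcnj14, the latter an inward rectifier potassium channel gene, spanned 3391 bp at P2 and 16298 bp at P17 (log2 ratio 2.26). Sec14l2, which encodes a lipid-binding protein, had 2939 bp and 12274 bp (2.06), Ovca2 had 2013 and 8363 bp (2.05), and Pex5l had 1966 and 7741 bp (1.98).

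Other widened pairs included genes of neuronal signalling and metabolism. The Kdelr1 peak of 2757 bp spanned 10442 bp at P17 and reached Grin2d, an NMDA receptor subunit gene (log2 ratio 1.92). The Slc25a22 peak, at a mitochondrial glutamate carrier gene, spanned 3392 and 11520 bp and reached Cend1 (1.76). The Pigs peak spanned 2470 and 8348 bp and reached Aldoc, a glycolytic aldolase gene (1.76). Tnfaip3, a brake on NF-kB signalling, had 2637 and 9148 bp (1.79), and Slco4a1, an organic anion transporter gene, had 2722 and 9249 bp (1.76). The peak at Zfp593 spanned 3367 and 13085 bp and reached Grrp1 (1.96). By the gain in bp, Stk35 (5325 and 17968 bp), Klf9 (4697 and 15857 bp), Slc38a3 (5253 and 16094 bp) and Epb41 (7906 and 18196 bp) joined these. Klf9 encodes a hormone-responsive zinc finger factor, and Slc38a3 a glutamine transporter.

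The narrowed promoters included genes of progenitors and of Notch signalling. Tspan15, a regulator of the ADAM10 protease, had a peak of 7099 bp at P2 and 1849 bp at P17 (log2 ratio -1.94). Nrarp, a Notch target that dampens Notch signalling, had 11187 and 3527 bp (-1.67). Zic2, a zinc finger factor of neural progenitors, had 13049 and 4426 bp (-1.56). Its P2 peak also reached the start of Pcca, which the P17 peak did not. Sox11, a factor of immature neurons, had 8552 and 2997 bp (-1.51), and Lhx2, which keeps retinal progenitors and glia competent, had 13844 and 5852 bp (-1.24).

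Genes of division were also among the narrowed pairs. Fbxo5, which restrains the anaphase-promoting complex, had 6714 bp at P2 and 2287 bp at P17 (log2 ratio -1.55). Mybl1, a MYB family factor, had 6705 and 2597 bp (-1.37), and Plagl1, an imprinted zinc finger gene, had 7538 and 2719 bp (-1.47). A P2 peak of 7971 bp covered the histone genes H2ac15, H2bc15 and H4c12, and the 2638 bp left at P17 lay at H4c12 (-1.60). Pmepa1, a TGF-beta target, had 15184 and 6182 bp (-1.30). Antkmt with Metrn, Lysmd1 with Scnm1, and Rnaseh2c completed the 12 lowest ratios, at -1.35, -1.31 and -1.27. Among single-partner pairs at a start, the largest loss in bp was at Ccdc85c, with 20259 bp at P2 and 9162 bp at P17. Hmx1 followed this pattern with 13548 and 6264 bp, and Zfp36l1, an mRNA decay factor gene, with 10322 and 4366 bp.

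The 10 widest P2 domains included those of the transcription factor genes Pax6, Six3, Meis2 and Tbx2. The widest of all, 34586 bp, held the microRNA gene Mir9-2 and lay 45399 bp from Mef2c, the nearest protein-coding gene. Pax6, the eye-field regulator, spanned 33680 bp at P2 and at P17 had a peak of 14312 bp at its start and a separate one of 6052 bp. Six3, an eye-field homeobox gene, had 24016 and 17834 bp, Meis2 had 19652 and 14141 bp, and Tbx2, a factor of dorsal retina, had 18070 and 16122 bp. Cdkn1b, which encodes the cell cycle inhibitor p27, had 17214 and 5858 bp. Each of these start peaks was narrower at P17. The other wide P2 domains lay at Skida1 with Mllt10 (21797 bp), at Ccdc85c, inside Msi1 (16993 bp) and far from any protein-coding gene (17139 bp, with Cypt12 nearest). Among the widest P17 domains, the domain at Ganab, Ints5 and Uqcc3 (23224 bp) joined P2 peaks that were at most 8220 bp wide. Against the single P2 peaks under it, such as 2307 bp at Ints5 and 2857 bp at Uqcc3, the log2 ratios were 3.33 and 3.02, above that of Prph2. Otx2, a regulator of photoreceptor and bipolar fate, had 15896 bp at P2 and 18554 bp at P17, and Dlg4, a postsynaptic scaffold gene, had 14529 and 18448 bp.

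**Figure D1:**
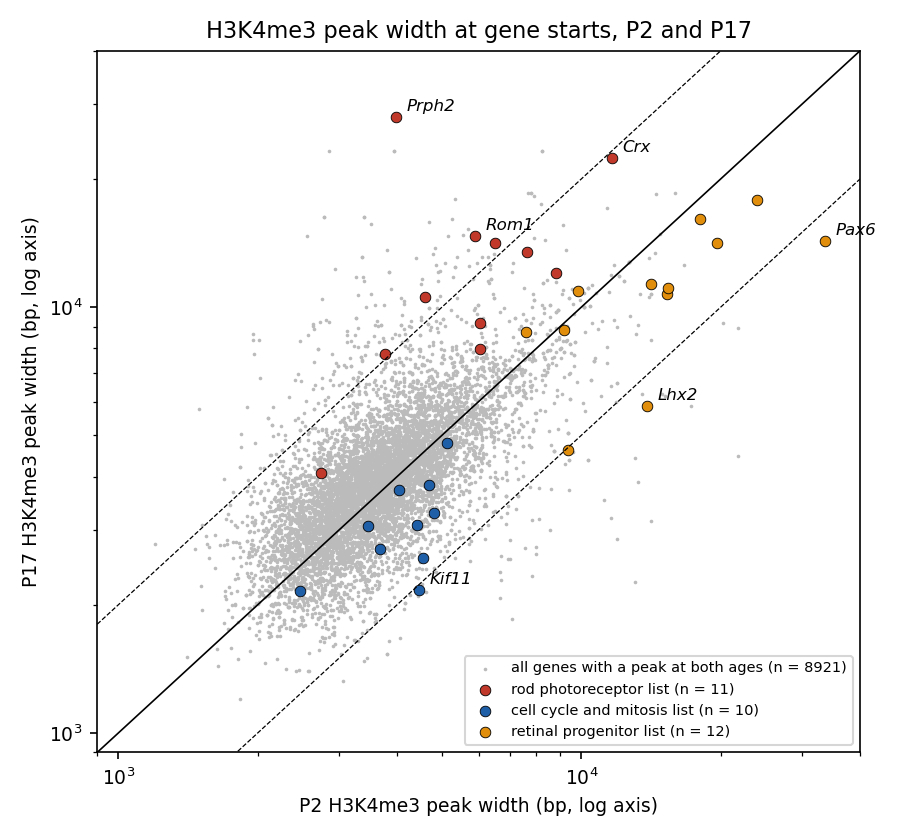
Width of the widest H3K4me3 peak at the start of each protein-coding gene at P2 (x axis, bp, log scale) and P17 (y axis, bp, log scale). Grey points are the 8921 genes with a peak at both ages, coloured points are members of 3 gene lists, the solid line marks equal widths and the dashed lines 2-fold. The 11 rod genes lie above the solid line and the 10 cell cycle genes below it, while Pax6 and Lhx2 lie below the lower dashed line.

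Where a start inside both peaks had a known strand, the difference in width lay more often on the side of the gene body. Over 7172 such genes the median peak reached 1416 bp upstream and 2068 bp downstream of the start at P2, and 1448 and 2228 bp at P17. In the 162 genes at least 2-fold wider at P17, the upstream median was 1197 bp at P2 and 2628 bp at P17, and the downstream median 1864 and 4914 bp. The change downstream was the larger in 102 of them (63.0%). In the 55 genes at least 2-fold narrower, the upstream medians were 2164 and 1044 bp and the downstream medians 3668 and 1842 bp, with the larger change downstream in 61.8%. Over all 7172 genes the downstream change was the larger in 57.3%.

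Single genes showed both forms. At Prph2 the peak reached 864 bp upstream and 3115 bp downstream at P2, and 8111 and 19860 bp at P17. At Stk35 the upstream reach was 1713 bp and 1444 bp, and the downstream reach 3611 bp and 16523 bp. Sec14l2 went the other way, with 606 and 8521 bp upstream and 2332 and 3752 bp downstream. At Sox11 the downstream reach was 6387 bp at P2 and 1648 bp at P17, while upstream it was 2164 and 1348 bp.

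**Figure D2:**
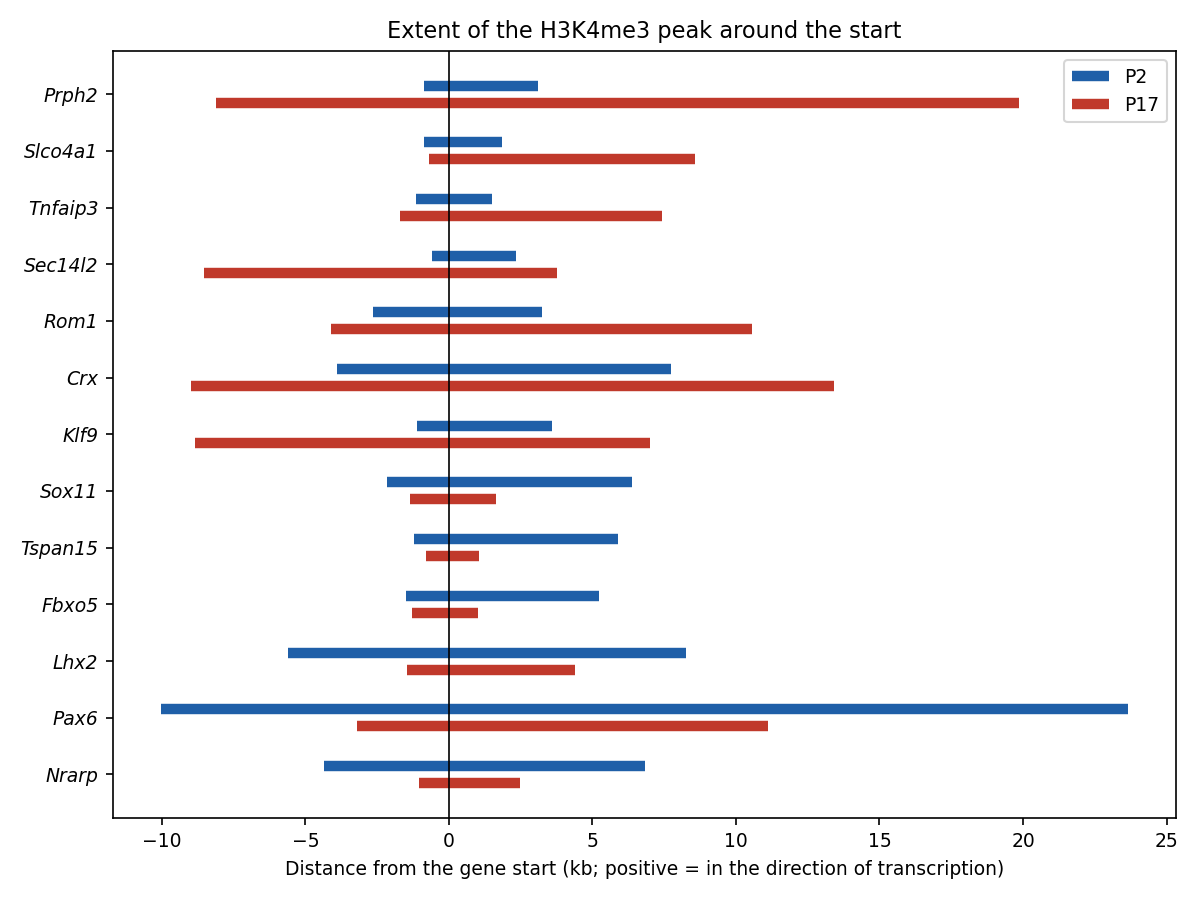
Reach of the H3K4me3 peak around the start of 13 genes at P2 (blue) and P17 (red), in kb from the start, with positive values in the direction of transcription. The P17 bar of Prph2 runs to 19860 bp downstream, and the P17 bars of Sox11, Tspan15, Fbxo5, Lhx2, Pax6 and Nrarp lie inside their P2 bars.

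Genes were next sorted by their peaks within 1 kb of the start. Of 21883 protein-coding genes, 8921 (40.8%) had a peak at both ages, 1046 (4.78%) at P17 only, 762 (3.48%) at P2 only and 11154 (51.0%) at neither. Among the 8921 genes with a peak at both ages, 210 (2.35%) were at least 2-fold wider at P17 and 74 (0.830%) at least 2-fold narrower, with a median log2 ratio of 0.07. These shares are the background for the gene lists that follow. For 101 of the 8921 genes the widest peaks of the ages did not overlap each other.

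Most rod genes had a start peak at P17 and not at P2. Of 37 rod genes, 25 (67.6%) had a start peak at P17 only, against 4.78% of all genes, none had a peak at P2 only, and 11 had a peak at both ages. Rp1 had none at either age. All 11 with both were wider at P17, with a median log2 ratio of 0.94, and 5 of them were at least 2-fold wider. In whole retina, more cells with a marked promoter and more mark per cell cannot be told apart.

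The P17-only rod genes covered the phototransduction cascade. Gnat1, the rod transducin alpha subunit gene, had 14661 bp, in a peak that also met an end of Sema3f. Gngt1, the gene of the gamma subunit, had 7161 bp. Of the phosphodiesterase subunits, Pde6a had 13547 bp, Pde6b 13467 bp and Pde6g 16271 bp. The channel subunit genes Cnga1 and Cngb1 had 8058 and 9511 bp, and the exchanger gene Slc24a1 12349 bp.

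Genes that shut off the light response followed the same course. Grk1, a receptor kinase gene of photoreceptors, had 15132 bp at P17 and no peak at P2. Sag, the rod arrestin gene, had 15064 bp at P17 only (chr1:87800609-87815672). Rcvrn had 10307 bp, Guca1b 13094 bp, Gucy2f 7008 bp and Rgs9 6349 bp. By contrast, Gucy2e, a retinal guanylate cyclase gene, had a peak at both ages (2740 and 4083 bp), and so had Rgs9bp (4598 and 10537 bp). Genes of the outer segment and its matrix were also among the P17-only promoters, with 13698 bp at Prcd, 10457 bp at Fscn2, 8018 bp at Impg1, 7913 bp at Abca4 and 5531 bp at Impg2.

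The main rod transcription factor genes already had start peaks at P2. Nrl, the leucine zipper factor that fixes rod fate, had 7642 bp at P2 and 13483 bp at P17 (log2 ratio 0.82). Nr2e3, its target and partner, had 8818 and 12011 bp (0.45). Crx, Nrl and Nr2e3 thus had a peak at both ages, whereas Samd7, a gene of a photoreceptor corepressor, had 4576 bp at P17 only. Pdc, the phosducin gene, had 6525 and 14178 bp (1.12), and Tulp1, a trafficking gene, had 3774 and 7770 bp (1.04).

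**Figure D3:**
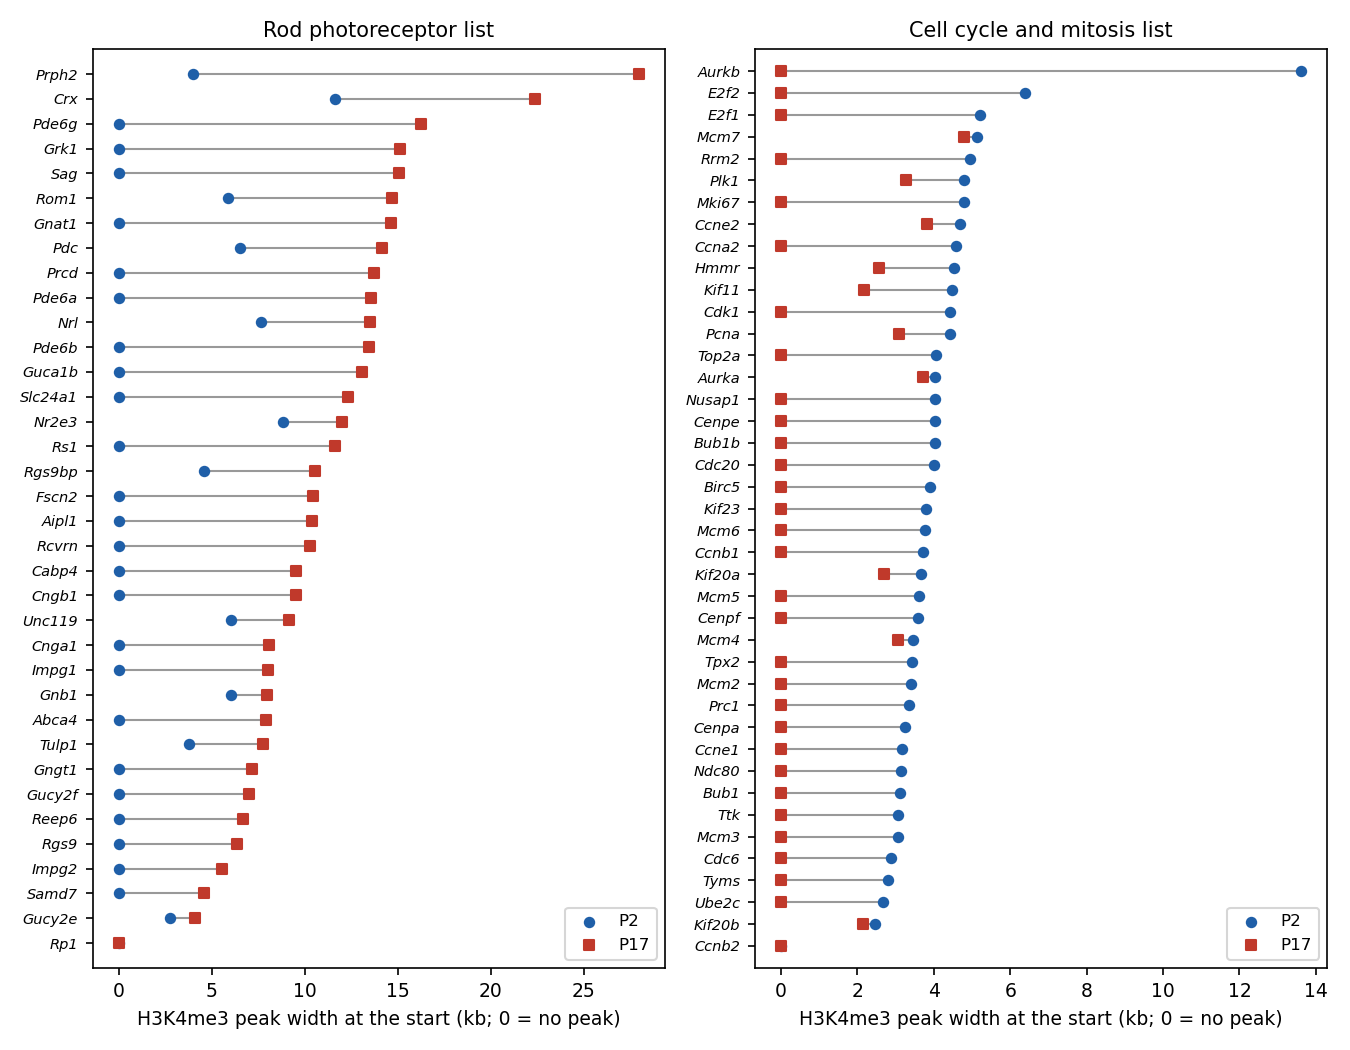
H3K4me3 peak width at the start of genes of the rod list (left) and the cell cycle and mitosis list (right), in kb, at P2 (blue circles) and P17 (red squares), with 0 for no peak. Apart from 11 genes with a peak at both ages and Rp1 with none, the rod genes drawn have their P2 circle at 0. Of the 41 cell cycle genes, 30 have a peak at P2 and their P17 square at 0, and Ccnb2 has no peak at either age.

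Promoter sequences are shown for 4 photoreceptor genes and 2 mitotic genes that carried P2-only peaks, as the 250 bases before the start. Sag and Cngb1 had P17-only peaks, and the Prph2 peak was at least 2-fold wider at P17. The Crx peak was larger at P17 but under 2-fold (log2 ratio 0.94). They were taken from RefSeq on GRCm38.p6 and run 5′ to 3′ on the strand of the gene. In the photoreceptor genes capitals mark TAATCC on either strand (GGATTA in reverse), the core to which CRX and OTX2 are known to bind. In the mitotic genes capitals mark CCAAT on either strand (ATTGG in reverse), the box bound by NF-Y. This box also occurs in the printed Cngb1, Crx and Prph2 sequences, where it is left in lower case.
Sag (chr1:87803430-87803679, plus strand): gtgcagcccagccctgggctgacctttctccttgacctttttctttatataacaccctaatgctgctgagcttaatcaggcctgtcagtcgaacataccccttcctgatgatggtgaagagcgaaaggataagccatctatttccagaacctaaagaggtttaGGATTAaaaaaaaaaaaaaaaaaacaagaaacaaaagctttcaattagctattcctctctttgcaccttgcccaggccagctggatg
Cngb1 (chr8:95306586-95306835, minus strand): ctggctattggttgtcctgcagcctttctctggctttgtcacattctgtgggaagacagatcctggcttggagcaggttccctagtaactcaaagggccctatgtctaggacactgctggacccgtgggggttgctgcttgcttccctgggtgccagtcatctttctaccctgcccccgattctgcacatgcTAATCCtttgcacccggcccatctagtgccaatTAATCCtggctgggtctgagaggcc
Crx (chr7:15879956-15880205, minus strand): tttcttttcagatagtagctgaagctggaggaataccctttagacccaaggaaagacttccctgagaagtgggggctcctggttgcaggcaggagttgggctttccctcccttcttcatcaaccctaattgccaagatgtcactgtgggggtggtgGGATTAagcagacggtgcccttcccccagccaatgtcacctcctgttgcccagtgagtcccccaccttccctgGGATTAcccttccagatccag
Prph2 (chr17:46910228-46910477, plus strand): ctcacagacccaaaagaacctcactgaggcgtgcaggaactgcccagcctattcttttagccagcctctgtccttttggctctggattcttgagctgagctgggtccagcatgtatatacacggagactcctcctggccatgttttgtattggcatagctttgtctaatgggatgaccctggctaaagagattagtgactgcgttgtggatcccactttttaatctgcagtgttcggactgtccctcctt
Cdk1 (chr10:69352913-69353162, minus strand): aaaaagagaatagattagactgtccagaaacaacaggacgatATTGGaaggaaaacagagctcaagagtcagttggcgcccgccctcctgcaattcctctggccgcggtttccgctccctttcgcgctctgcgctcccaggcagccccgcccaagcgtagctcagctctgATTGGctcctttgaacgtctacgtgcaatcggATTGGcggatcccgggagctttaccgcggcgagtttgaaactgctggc
Top2a (chr11:99024190-99024439, minus strand): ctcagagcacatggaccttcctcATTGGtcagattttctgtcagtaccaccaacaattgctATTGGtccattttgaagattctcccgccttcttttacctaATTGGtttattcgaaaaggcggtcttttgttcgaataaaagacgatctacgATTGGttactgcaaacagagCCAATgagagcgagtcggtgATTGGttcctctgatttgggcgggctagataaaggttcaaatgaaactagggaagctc

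Sag held 1 TAATCC match, starting 87 bases before the start. Cngb1 held 2, at 58 and 25 bases, and Crx 2, at 94 and 21 bases. Prph2, the most widened promoter among single-partner pairs, held none in this window. CpG dinucleotides were sparse in these promoters, with an observed over expected ratio of 0.20 in Sag, 0.17 in Cngb1, 0.14 in Crx and 0.35 in Prph2. Cdk1 and Top2a differed in this respect, at 0.96 and 0.94. Cdk1 held 3 CCAAT matches, at 208, 80 and 48 bases, and Top2a held 6.

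Across all start peaks, low CpG content went with peaks seen at 1 age. In the 300 bases from 250 before to 50 after the start, the median CpG ratio was 0.82 in shared P17 peaks, 0.71 in P2-only peaks and 0.62 in P17-only peaks, and 0.38 in all 32851 promoters of the table. The table held a promoter for 84.4%, 82.2% and 83.6% of these start peaks, noncoding starts included. A ratio under 0.5 was found in 7.87% of shared, 20.9% of P2-only and 34.2% of P17-only peaks. The widened and the narrowed peaks had medians of 0.70 and 0.71. TAATCC on either strand was present in 9.98% of P17-only, 12.9% of at least 2-fold wider, 6.83% of shared and 4.17% of P2-only peaks, against 7.06% of all promoters of the table. TATAAA lay in 10.1% of P17-only and 7.36% of shared P17 peaks, both below the 13.6% of all promoters of the table. For CACGTG the shares were 12.1% and 12.8%, both above the 7.15% of all promoters. For CCGGAA they were 24.8% and 36.3%, both above the 14.9% of all promoters. Median G+C content was 58.0% in P17-only and 62.8% in shared P17 peaks, and its part in the motif shares was not tested. For the rod list itself only 16 of 25 P17-only genes (64.0%) had a promoter in the table, and no motif share over that list is given. The photoreceptor promoters printed above do not stand for the list.

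**Figure D4:**
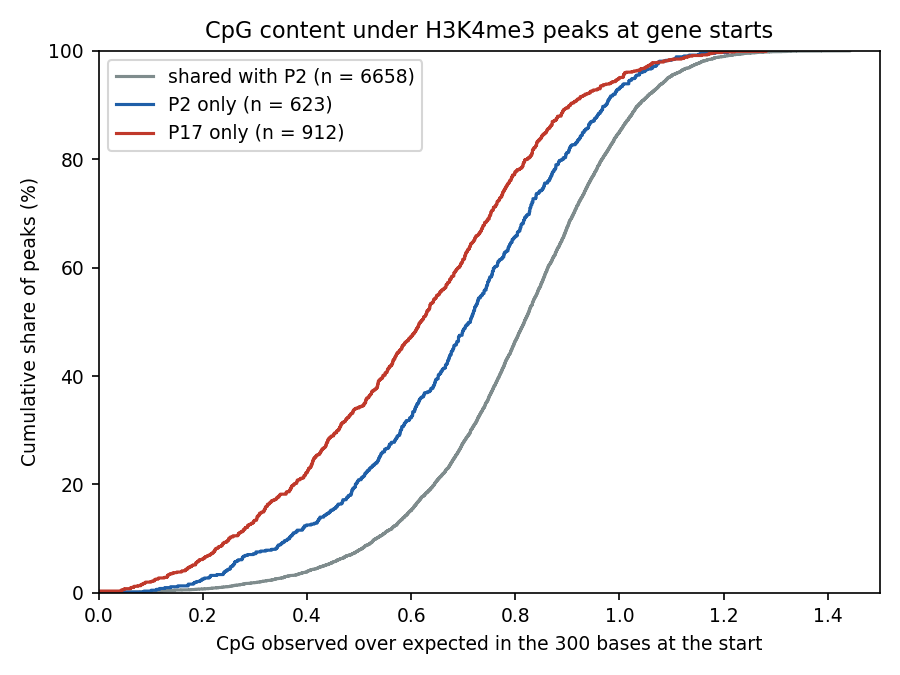
Cumulative share of start peaks (y axis, %) by the CpG observed over expected ratio of the promoter (x axis, 300 bases), for P17 peaks shared with P2 (grey, 6658 peaks), P2-only peaks (blue, 623) and P17-only peaks (red, 912). At a ratio of 0.5 the curves stand at 7.87%, 20.9% and 34.2%.

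Genes of the ribbon synapse mostly had peaks at both ages that were wider at P17. Of 23 ribbon synapse genes, 15 had a peak at both ages, 6 (26.1%) at P17 only and 1, Dmd, at P2 only. Of the 15, 14 were wider at P17, with a median log2 ratio of 0.59 against 0.07 for all genes, and 3 were at least 2-fold wider. These were Stx3 (4500 and 11309 bp), which encodes the ribbon synapse syntaxin, Sv2b (4039 and 8593 bp), a vesicle protein gene, and Syt1 (4887 and 9968 bp), a calcium sensor gene. P17-only peaks lay at Cplx4 (13547 bp) and Cplx3 (7065 bp), the complexins of retinal ribbon synapses, at Slc17a7 (10260 bp), the vesicular glutamate transporter gene, and at Lrit1, Cacna2d4 and Cacna1f (7440, 6724 and 3410 bp).

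In the bipolar list, 6 of 19 genes (31.6%) had a P17-only peak. Isl1, a factor of ON bipolar, ganglion and amacrine cells, had the widest at 15549 bp. Grm6 and Trpm1, the receptor and channel of ON bipolar dendrites, had 5746 and 5392 bp. Bhlhe23, Grik1 and Lrit3 had 3860, 5078 and 4124 bp. Another 9 genes of this list, including Vsx1, Cabp5 and Pcp2, had no peak at either age. In the cone list, 10 of 12 genes had no peak, among them both opsin genes Opn1sw and Opn1mw and also Arr3, and the other two, Gnb3 (5629 and 7888 bp) and Thrb (3747 and 5243 bp), had a peak at both ages.

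Cell cycle genes showed the reverse of the rod pattern. Of 41 genes, 30 (73.2%) had a start peak at P2 only, against 3.48% of all genes, none at P17 only, and 10 at both ages. Ccnb2 had none. All 10 were narrower at P17, with a median log2 ratio of -0.36, and Kif11, a spindle motor gene, was past 2-fold with 4467 and 2169 bp (-1.04). P2-only peaks lay at the mitotic genes Mki67 (4789 bp), Cdk1 (4436 bp), Top2a (4049 bp), Bub1b (4019 bp), Cdc20 (4010 bp), Birc5 (3909 bp) and Ccnb1 (3730 bp). They also lay at genes of DNA replication, with 4944 bp at Rrm2, 3759 bp at Mcm6, 3407 bp at Mcm2 and 2877 bp at Cdc6, and at E2f1 (5197 bp) and E2f2 (6380 bp), whose products switch on the S phase genes.

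These cell cycle peaks were of ordinary width. The 30 peaks had a median of 3744 bp, near the 3542 bp of all P2 peaks, whereas the 25 rod peaks at P17 had a median of 10370 bp against 3703 bp of all P17 peaks. The widest of the 30, at Aurkb (13617 bp), was placed by a gene end without strand and overlapped a P17 peak by 7309 bp, and the other 29 had no P17 peak. Pcna (4419 and 3086 bp), Plk1 (4799 and 3278 bp), Mcm4, Mcm7, Aurka and Ccne2 had a peak at both ages. Promoters of the P2-only cell cycle genes were CpG-rich, with a median ratio of 0.85 in the 27 of 30 present in the table. CCAAT lay in 74.1% of them against 42.3% of all 17491 genes with a promoter. TTTGAA on either strand, the core of the cell cycle homology region, lay in 51.9% against 18.5%. Among start peaks of all genes, CCAAT lay in 45.4% of P2-only, 42.9% of P17-only and 43.7% of shared P17 peaks. For TTTGAA these shares were 16.5%, 14.4% and 13.1%. These 2 motifs were chosen after the promoters had been seen.

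Progenitor genes combined absent and narrowed peaks. Of 23 genes, 10 (43.5%) had a P2-only peak and 12 a peak at both ages, with a median log2 ratio of -0.45. Of the 12, 10 were narrower at P17, and Lhx2, Pax6 and Hes1 (9366 and 4630 bp) were so by at least 2-fold. Ccnd1, the D-type cyclin gene of retinal progenitors, had the widest P2-only peak at a start with 15933 bp (chr7:144929258-144945190). Sox2 had 10646 bp, Zic1 8231 bp, Id3 8157 bp, Notch1, the receptor gene, 7778 bp and Fgf15 7034 bp, all at P2 only. Eye-field factor genes had a peak at both ages. Rax had 14135 and 11360 bp, Six6 15377 and 11071 bp, and Meis1 15304 and 10746 bp. Hes5 (9838 and 10894 bp) and Vax2 (7589 and 8736 bp) were wider at P17.

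Among proneural and neurogenic genes, 9 of 23 (39.1%) had a P2-only peak and none a P17-only peak. These included Neurog2 (5012 bp), Atoh7 (2863 bp) and Olig2 (11554 bp), which encode basic helix-loop-helix factors of neurogenic progenitors. They also included Foxn4 (5910 bp) and the Notch ligand genes Dll3 and Dll4 (5674 and 8255 bp). Of 13 genes with both, 11 were narrower at P17, and Otx2 and Rorb, which encode factors of photoreceptor fate, had the wider peak at P17. For Rorb the widths of 9138 and 10992 bp belong to separate peaks that do not overlap each other. Neurod1, which stays active in photoreceptors, had 8306 and 7630 bp (log2 ratio -0.12).

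The Müller glia list lay on the same side as the progenitor list. Of 26 genes, 10 (38.5%) had a P2-only peak, none a P17-only peak, 7 a peak at both ages and 9 none. The P2-only genes were Sox2, Sox8 (7924 bp), Sox9 (5787 bp), Id3, Nfia (7103 bp), Cp (5495 bp), Vim (4733 bp), Slc1a3 (4295 bp), Apoe (3569 bp) and Cd9 (3184 bp). Several of these are also expressed by progenitors, and Sox2, Sox9, Id3, Hes1 and Lhx2 stand on both lists. Glul, the glutamine synthetase gene of Müller glia, had 6260 and 7591 bp (log2 ratio 0.28), and Gpr37 8213 and 10136 bp (0.30). Markers of mature Müller glia such as Rlbp1, Aqp4, Kcnj10 and Clu had no start peak at either age, and a missing call in whole retina does not show that the promoter is unmarked in glia.

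**Figure D5:**
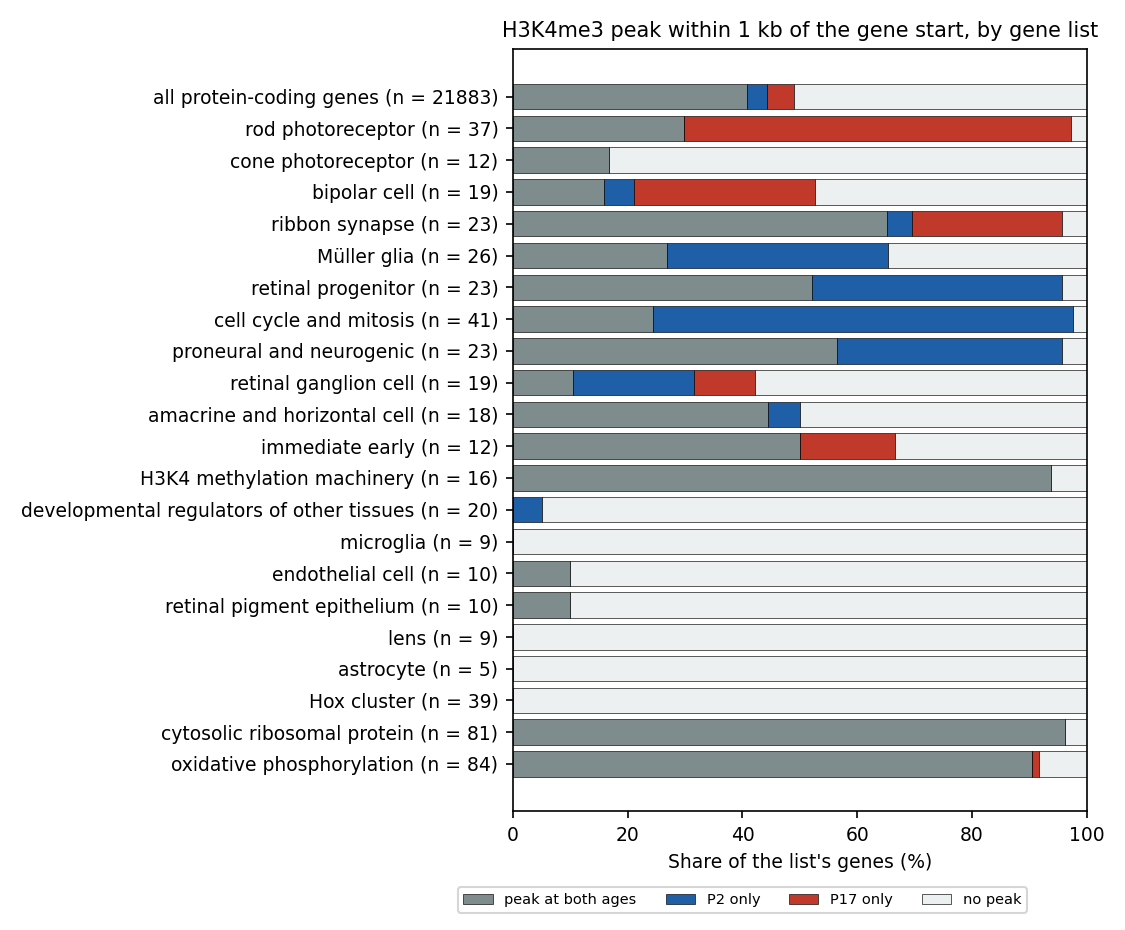
Share of the genes of each list (x axis, %) with an H3K4me3 peak within 1 kb of the start at both ages (grey), at P2 only (blue), at P17 only (red) or at neither (white), with all 21883 protein-coding genes on top. Red fills 67.6% of the rod bar and blue 73.2% of the cell cycle bar, against 4.78% and 3.48% of all genes.

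Inner retinal neurons gave mixed values. Of 18 amacrine and horizontal cell genes, 8 had a peak at both ages, with a median log2 ratio of -0.05, and Onecut1 (8376 bp), a horizontal cell factor gene, was at P2 only. Tfap2a (14417 and 13423 bp), Tfap2b (10750 and 10820 bp) and Slc32a1 (9639 and 9633 bp) hardly differed in width, while Gad2 had 6755 and 3959 bp (-0.77). Of 19 ganglion cell genes, 4 were at P2 only (Isl2, Ebf3, Rbpms and Elavl4), 2 at P17 only (Isl1 and Nefh) and 11, including the Pou4f genes, at neither.

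Genes used in all cells were marked at both ages. Of 81 cytosolic ribosomal protein genes, 78 had a peak at both ages, with a median log2 ratio of -0.03, and of the 16 genes of the H3K4 methylation machinery 15 did (-0.05). Of 84 oxidative phosphorylation genes, 76 had a peak at both ages, and 64 of these were wider at P17, with a median log2 ratio of 0.19. Past 2-fold were Atp5d (7776 and 18517 bp), Atp5e (1689 and 3953 bp) and Ndufv1 (2439 and 5487 bp). The 7 members with no peak were Cox4i2, Cox6a2, Cox6b2, Cox7a1, Cox7b2, Cox8b and Cox8c, isoforms known mainly from other tissues. Immediate early genes had 6 of 12 at both ages, and Atf3 (3817 bp) and Nr4a1 (3665 bp) at P17 only.

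Markers of other cells and tissues were nearly absent. None of 9 microglia, 9 lens, 5 astrocyte and 39 Hox genes had a start peak at either age. Of 10 endothelial genes only Kdr (8910 and 5162 bp), which retinal progenitors also express, had a peak, and of 10 pigment epithelium genes only Pmel (3749 and 3998 bp). Of 20 developmental regulators of other tissues, 19 had no start peak at either age. The defining markers of microglia and lens were thus at 0 in both lists.

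Readouts that the pairing did not use were then laid over the peaks. H3K27ac, a mark of active promoters and enhancers, differed most between the classes at P17. A P17 H3K27ac peak overlapped 254 of 885 P2-only peaks (28.7%, interval 25.8 to 31.8%), against 90.9% of shared P2 peaks and 86.9% of P17-only peaks (85.0 to 88.6%). It overlapped 144 of 144 peaks that were at least 2-fold wider (interval 97.4 to 100%). The widest H3K27ac peak there had a median width of 21908 bp, against 3785 bp at pairs under 2-fold. Of the 55 P2 peaks that were at least 2-fold narrower at P17, 67.3% (54.1 to 78.2%) met a P17 H3K27ac peak. The P2 H3K27ac list holds 287845 peaks and met 87.6 to 98.6% of every class, which leaves little room for a difference.

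The same readout was taken at the start peaks of the listed genes. Of the 25 rod genes with a start peak at P17 only, the peak of Pde6g is the one shared with Ccdc137 and Oxld1, and the other 24 peaks had no P2 peak. All 24 met P17 H3K27ac and 19 (79.2%) met P2 H3K27ac, near the 86.9% and 87.6% of all P17-only peaks. Of the 29 cell cycle peaks with no P17 peak, 28 (96.6%) met P2 H3K27ac and 11 (37.9%) met P17 H3K27ac. The share of all P2-only peaks that met P17 H3K27ac was 28.7%. Beside it, the P2-only peaks of progenitor genes met P17 H3K27ac in 3 of 10, those of Müller glia genes in 5 of 10, and those of proneural genes in 1 of 9. The progenitor and Müller glia numbers share the peaks of Sox2, Sox9 and Id3.

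SOX9, a SoxE factor of progenitors and Müller glia, also differed between the classes. At P2 its peaks overlapped 49.3% of shared, 28.5% (25.6 to 31.5%) of P2-only and 9.21% (7.80 to 10.8%) of P17-only H3K4me3 peaks. At P17 they overlapped 20.9%, 5.20% and 13.2%. Of the peaks at least 2-fold wider at P17, 51.4% (43.3 to 59.4%) met P17 SOX9, against 20.1% of P17 peaks under 2-fold. The widened P17 peaks were also longer, with a median of 7770 against 3730 bp. Over the narrower P2 footprint of the same 144 pairs, with a median of 3076 bp, the share was 44.4% (36.6 to 52.6%). SOX8, its close relative, met 29.2% of these footprints at P17 against 18.2% of P2 peaks under 2-fold.

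SOX9 overlap was also taken at the listed genes. All 10 P2-only progenitor peaks met P2 SOX9 and none met P17 SOX9. P2 SOX9 was met by 7 of 9 P2-only peaks at proneural genes and 6 of 10 at Müller glia genes, against 28.5% of all P2-only peaks. The peaks of Sox2, Sox9 and Id3 are counted in both the progenitor and the Müller glia numbers, so these are not separate measurements. At cell cycle genes it was met by 11 of 29 (37.9%), near that share. The progenitor, proneural and Müller glia peaks were also longer than all P2-only peaks, with medians of 7406, 5910 and 5641 bp against 3457 bp. Of the 24 rod peaks with no P2 peak, 13 (54.2%) met P17 SOX9 and 2 met P2 SOX9, against 13.2% and 9.21% of all P17-only peaks. The rod peaks were longer than all P17-only peaks at the median (10338 against 3226 bp), and the part of length in these overlaps was not tested.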

How the data were processed

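CUT&RUN was done on nuclei of wild-type mouse retina. Per the submitters' processing notes, Bowtie2, SEACR and GRCm38 were used, and their settings, and how the 2 libraries of an age were combined, are not given in the sources used here. The authors deposited peak lists with chromosome, start and end, and a score field that was 0 in every deposited peak, so only positions and widths were used. The whole list of an age stands for its group, and 0 columns of other samples were set aside.

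Peaks were paired at 1 bp of overlap with Python 3.11.15, pandas 2.3.3 and numpy 2.4.6, and positions are counted from 1. A peak lay at a gene when it came within 1 kb of a start, taken from the RefSeq promoter table (GRCm38.p6) or, for genes without an entry, from both gene ends. This mixture was chosen after the lists had been opened. For a gene with a peak at both ages the widest peak of each list was compared. Exons and introns were not assigned. Some items are not reported here. The pairing and the ratio were tested on simulated data.

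Members and gene lists were chosen with earlier results of these data known. Named genes were drawn from the 12 highest and 12 lowest width ratios at starts among pairs with a single partner. Further sources were the 8 largest gains and losses in bp and the 10 widest peaks of each list and of each age-only class. Members of the 21 gene lists were added, with those past 2-fold or at 1 age only preferred. Not every gene of these sets is named, so the named genes do not stand for all members of a set. Peaks away from starts, peaks joined or split and the histone, Id and Zic lists were chosen after their values were seen. Library depth is unknown, so no precision beyond counting error is given.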

Additional observations from a re-analysis of the deposited data

How the results depend on the processing

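Alternatives tried were a required overlap of 50% of the shorter peak, other distances to the start, autosomes only, merged neighbouring peaks, the wider 50% of each list, single-partner pairs, loci with summed widths, centred ratios and other gene starts. Over 43 results, 139 of 159 alternative values held (counts within 1.5 times, single-gene ratios on the same side of 2-fold, percentages and the median ratio within the 95% interval of the main value), 20 moved and 0 reversed. A floor of 1000 bp on both widths was also tried and hardly changed the set of pairs, with 207 pairs wider and 97 narrower. The results include the 12 highest and 12 lowest ratios, tried with merged peaks and with centring. With merged peaks each of these ratios equalled its main value, so merging did not test them. Centring shifts each log2 ratio by the median of 0.06, too little to take any of these across 2-fold. Those centred values were therefore bound to hold and say nothing about robustness. Apart from centring, each setting that moved a value uses fewer peaks, pairs or genes. With single-partner pairs, and with loci, the number at least 2-fold narrower was 55 in each case. With the wider 50% of each list, 81 pairs were wider and 28 narrower, 61.2% were wider at P17 and the median log2 ratio was 0.07. P2-only peaks then numbered 1389 (30.4%), P17-only peaks made up 34.1%, and 3621 genes had a peak at both ages, 1427 at P2 only and 1577 at P17 only, with 11 ribbon synapse genes at P17 only. With the wider 50% set against the full other list, 418 P2-only and 552 P17-only peaks (11.5%) were left. Centring made the median 0 and the wider share 50%. Using only genes in the promoter table was an alternative added after the data were seen. It left 16 of 26 rod genes at P17 only and 6 of 14 progenitor genes at P2 only. The full lists gave 25 of 37 and 10 of 23, so these counts moved with the smaller lists. No paired analysis was possible because each age has 1 list without replicates, and for the same reason no replicate could be left out. Depth, IgG background and replicate spread limit every value, since none is known here.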

Other observations

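MicroRNA genes were described separately, since they are not among the protein-coding genes. Of 1005 hairpins in the RefSeq table (GRCm38.p6), 129 lay inside an H3K4me3 peak, 91 at both ages, 20 at P2 only and 18 at P17 only. The sensory cluster of Mir183, Mir96 and Mir182, abundant in photoreceptors, lay under a peak of 14631 bp at P2 (chr6:30166095-30180725) and 18298 bp at P17 (chr6:30165069-30183366). Mir183 and Mir96 lay inside both peaks and Mir182 inside the P17 peak only. Mir129-2 lay in a P17-only peak of 7627 bp. Mir9-2 lay in the widest P2 domain, 34586 bp, and in a P17 peak of 25158 bp, while Mir9-3 lay in a P2-only peak of 5954 bp. Mir92b (4354 bp), Mir130a (4921 bp) and Mir130b with Mir301b (2933 bp) lay in P2-only peaks. The mature sequences are given 5′ to 3′ with the seed, bases 2 to 8, in capitals. The 3 members of the sensory cluster have related but different seeds, and miR-130a and miR-130b share theirs.
mmu-miR-183-5p: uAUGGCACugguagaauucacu
mmu-miR-96-5p: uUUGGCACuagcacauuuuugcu
mmu-miR-182-5p: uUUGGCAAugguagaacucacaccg
mmu-miR-129-5p: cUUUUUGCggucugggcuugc
mmu-miR-9-5p: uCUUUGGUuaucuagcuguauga
mmu-miR-92b-3p: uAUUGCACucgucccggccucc
mmu-miR-130a-3p: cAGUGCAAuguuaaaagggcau
mmu-miR-130b-3p: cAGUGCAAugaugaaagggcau

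Further gene families were listed after their values had been seen. Of the Id genes, whose products block basic helix-loop-helix factors, Id1 (6992 bp), Id2 (10505 bp) and Id3 (8157 bp) had P2-only peaks, and Id4 had 4428 bp at P2 and 3620 bp at P17. Of the Zic genes, Zic5 (10186 bp) and the neighbours Zic1 and Zic4, which share a peak of 8231 bp, were at P2 only. Of 62 replication-dependent histone genes, 34 had a peak at both ages, 9 (14.5%) at P2 only and 1 (1.61%), H4c3, at P17 only. Over all genes the shares at P2 only and P17 only were 3.48% and 4.78%. The P2 peak of H2ac15 and H2bc15, counted at P2 only, overlapped the P17 peak at H4c12. Among the 34, 26 were narrower at P17, with a median log2 ratio of -0.18. Several histone genes share a peak, as H2ac10, H3c8 and H4c8 do (9372 and 5061 bp), so they are not separate measurements.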
